A study of Mus musculus with 6 samples.

Results

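Nucleolar ribosome biogenesis genes were described in BCR-ABL transformed mouse pro-B cells with intact Ikaros or without its zinc finger 1 or 4. The members were a list of 34 gene symbols for nucleolar factors of ribosome synthesis, drawn up with earlier results of these data known, and no measured value enters the rule that selects them. Of the 34, 33 were found in the deposited table and 1, Noc2l, was not analysed here. All 33 had at least 1 RPKM (reads scaled to the length of the transcript and to the size of the library) in every library and were among 11345 genes tested, of 22099 genes in all. The lowest value of any member in any library was 6.9 RPKM, so no member entered the test only through the group in which it was high.

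The libraries came from C57BL/6 mouse marrow. Whole bone marrow was transduced on day 0 with the retrovirus BCR-ABL-p185-IRES-YFP, which expresses an oncogenic kinase fusion together with a fluorescent marker, and was cultured in vitro for 14 days. The labels call the cells BCR-ABL+ transformed proB-ALL, a model of acute lymphoblastic leukaemia, and do not state that transduced cells were sorted. There were 3 genotypes with 2 biological replicates each: wt, Ikaros_ZnF1-/- (called the ZnF1 mutant below) and Ikaros_ZnF4-/- (the ZnF4 mutant). Ikaros is the DNA-binding product of Ikzf1, is needed for lymphoid development and is known to restrain B cell leukaemia. All 6 cultures, wt included, carried the oncogene, so the comparisons address Ikaros finger loss within transformed cultures.

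In the nucleolus, RNA polymerase I transcribes a long ribosomal RNA precursor, which is modified by small nucleolar ribonucleoproteins (snoRNPs), cut into its parts and assembled with ribosomal proteins into the small and large subunits. Box C/D snoRNPs guide methylation of the ribose and box H/ACA snoRNPs guide the change of uridine to pseudouridine. Many genes of this pathway are known targets of MYC, and growing lymphoid cells make ribosomes at a high rate.

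MYC and its partner MAX bind the E-box CACGTG, so the promoters of the members were searched for these letters, which read the same on both strands. A promoter of 300 bases (250 before and 50 after the transcript start, RefSeq, build GRCm38.p6) was given for 28 of the 33 members, all but Fbl, Rrp12, Bop1, Rrs1 and Npm1. The E-box was present in 5 of the 28 (17.9%), beside 981 of 7998 tested genes with a promoter (12.3%) and 2187 of all 27025 genes with a promoter (8.09%). A gene with several promoters counts once. The 5 sites are shown with 30 bases each, 5′ to 3′ on the gene's strand, with the E-box in capitals, since they are where the members share the motif. They lie at chr17:71616220-71616249 (Wdr43, + strand), chr10:88826765-88826794 (Utp20, - strand), chr11:3963965-3963994 (Pes1, + strand), chr6:125131811-125131840 (Nop2, + strand) and chr11:72441347-72441376 (Mybbp1a, + strand).
Wdr43: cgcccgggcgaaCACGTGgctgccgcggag
Utp20: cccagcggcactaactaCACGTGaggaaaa
Pes1: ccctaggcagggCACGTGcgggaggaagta
Nop2: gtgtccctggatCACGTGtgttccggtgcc
Mybbp1a: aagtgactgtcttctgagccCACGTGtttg

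The first base of the E-box is base 18 of the transcript in Wdr43, base 38 in Utp20, base 3 in Pes1 and base 41 in Mybbp1a, and lies 60 bases before the start in Nop2. A match describes the letters only. The 250 bases before the start are shown for Ncl, the member with the highest level, and for Utp20 and Nhp2, which had the lowest adjusted p among the members in a comparison. Ncl is at chr1:86359456-86359705 (- strand), Utp20 at chr10:88826815-88827064 (- strand) and Nhp2 at chr11:51619523-51619772 (+ strand). None of the 3 holds the E-box in these bases, and that of Utp20 lies after the start.
Ncl: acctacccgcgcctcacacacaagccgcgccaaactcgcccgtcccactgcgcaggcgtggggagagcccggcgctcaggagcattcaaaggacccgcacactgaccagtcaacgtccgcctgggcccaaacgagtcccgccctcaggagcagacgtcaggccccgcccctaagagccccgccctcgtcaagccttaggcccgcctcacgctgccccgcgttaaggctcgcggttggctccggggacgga
Utp20: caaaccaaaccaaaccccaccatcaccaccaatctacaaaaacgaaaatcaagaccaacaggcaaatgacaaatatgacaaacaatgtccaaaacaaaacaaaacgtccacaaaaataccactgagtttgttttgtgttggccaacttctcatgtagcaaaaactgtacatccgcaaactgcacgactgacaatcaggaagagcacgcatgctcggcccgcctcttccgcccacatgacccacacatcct
Nhp2: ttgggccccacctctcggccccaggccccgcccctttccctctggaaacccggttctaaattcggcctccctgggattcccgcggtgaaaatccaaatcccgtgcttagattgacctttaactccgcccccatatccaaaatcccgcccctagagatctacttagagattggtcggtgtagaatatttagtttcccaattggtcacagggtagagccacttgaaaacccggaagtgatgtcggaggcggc

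Transcripts other than the members also differed between the libraries, and some of these differences followed genotype. Ikzf1 itself was at 89.2 and 85.9 RPKM in wt, 101.5 and 116.7 in the ZnF1 mutant and 188.2 and 170.2 in the ZnF4 mutant, and these levels of the whole gene cannot show which finger is lost. All 12 B lineage markers were present, and their summed level was 2427.5 to 3620.5 RPKM per library. Markers of other marrow cells were present too. The 12 macrophage and monocyte markers summed to 875.9 and 975.1 RPKM in the ZnF1 mutant and to 302.7 to 361.6 in the other 4 libraries. The 10 granulocyte markers summed to 532.8 RPKM in wt replicate 1 and 1635.9 in ZnF1 mutant replicate 2, against 0.5 to 53.3 in the other 4 libraries. Stromal and endothelial markers summed to 265.3 and 155.2 RPKM in the ZnF1 mutant and 71.9 to 80.3 elsewhere, with Lum at 0. T and NK cell markers summed to 0.4 to 6.1 RPKM, with Cd3e, Cd3g, Cd8a and Ncr1 at 0, and erythroid markers to 0.6 to 26.8. In bulk RNA, fewer cells of a type and less RNA per cell cannot be told apart.

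The 33 members together were lowest in the ZnF1 mutant and highest in the ZnF4 mutant. Their RPKM summed to 2062.3 and 2198.6 in wt replicates 1 and 2, to 1769.0 and 1766.9 in the ZnF1 mutant and to 2160.8 and 2547.3 in the ZnF4 mutant. These sums were 0.612% and 0.766% of the summed RPKM of the library in wt, 0.512% and 0.607% in the ZnF1 mutant, and 0.648% and 0.847% in the ZnF4 mutant. The median member stood at 45.9 and 41.0 RPKM in wt, 40.9 and 36.1 in the ZnF1 mutant and 50.2 and 49.7 in the ZnF4 mutant. The sums of the ZnF1 mutant libraries lay below both wt sums, while ZnF4 mutant replicate 1 lay between the wt libraries. The mean over the 6 libraries spanned 8.90 RPKM for Mrto4 to 270.4 for Ncl.

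**Figure D1:**
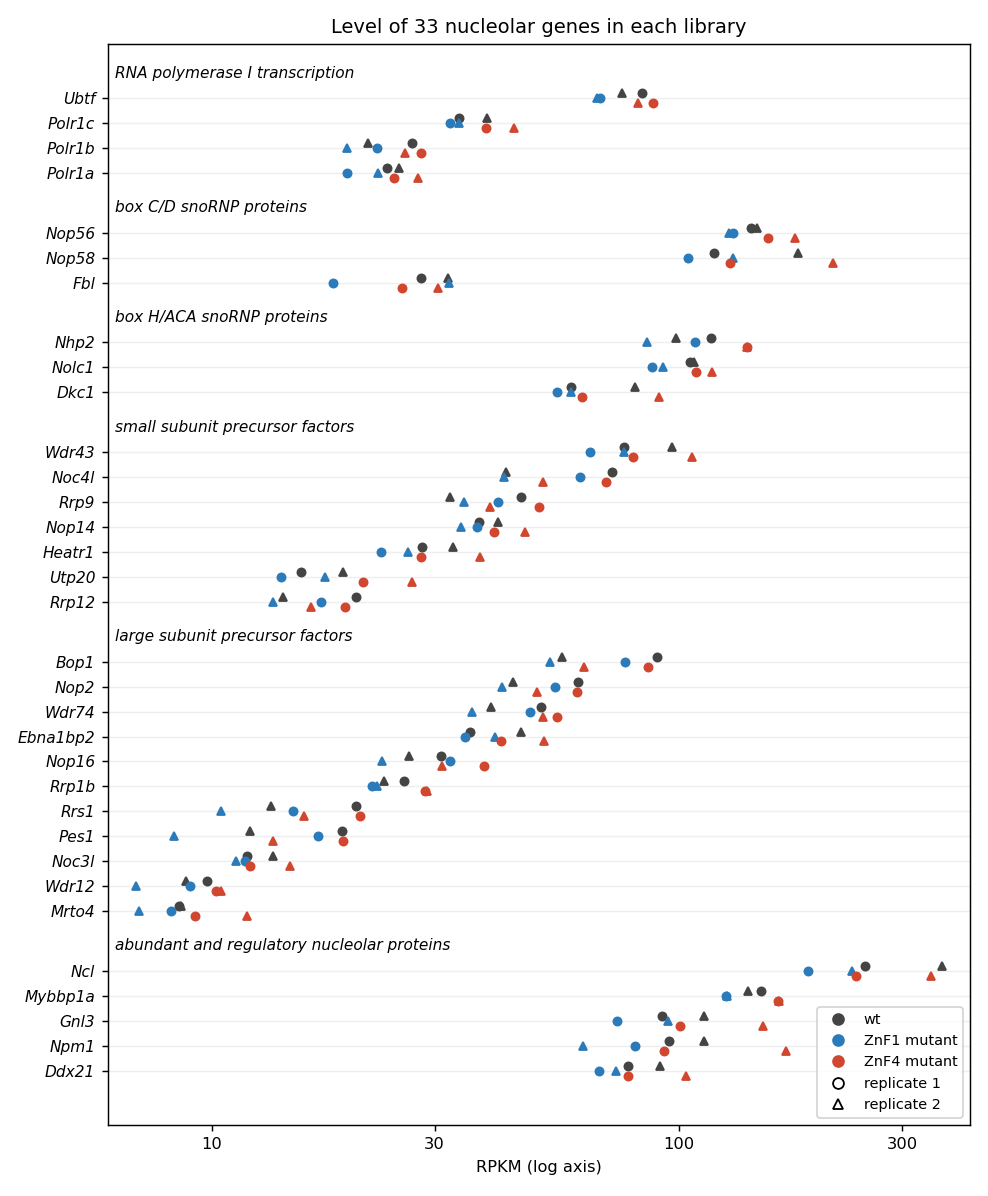
Level of each of the 33 genes (RPKM, log axis) in the 6 libraries, with circles for replicate 1 and triangles for replicate 2, in 6 groups by role. The 2 blue ZnF1 mutant libraries tend to lie to the left within a row, and levels run from 6.9 RPKM in Wdr12 to 364.3 in Ncl.

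In the account of each gene that follows, levels are in RPKM, with replicate 1 given before replicate 2. The RNA polymerase I group held 3 polymerase subunits and a promoter factor. Ubtf, the factor that binds the ribosomal gene promoter and helps to recruit the polymerase, was at 83.3 and 75.4 RPKM in wt, 67.9 and 66.7 in the ZnF1 mutant and 87.9 and 81.6 in the ZnF4 mutant. Polr1a, the largest subunit, was at 23.7 and 25.2 RPKM in wt, 19.5 and 22.7 in the ZnF1 mutant and 24.6 and 27.6 in the ZnF4 mutant. Polr1b, another subunit of the catalytic core, was at 26.8 and 21.6 RPKM in wt, 22.6 and 19.5 in the ZnF1 mutant and 28.1 and 25.9 in the ZnF4 mutant. In each of these 3 genes both ZnF4 mutant libraries lay above both ZnF1 mutant libraries. Polr1c, a subunit shared with RNA polymerase III, was at 33.9 and 38.8 RPKM in wt, 32.4 and 33.8 in the ZnF1 mutant and 38.7 and 44.3 in the ZnF4 mutant. Its ZnF1 mutant libraries lay below the wt libraries, and its ZnF4 mutant replicate 1 lay just under wt replicate 2.

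Among the box C/D proteins, Nop56, a core scaffold, was at 142.7 and 146.6 RPKM in wt, 130.3 and 127.9 in the ZnF1 mutant and 155.2 and 177.4 in the ZnF4 mutant. The 3 groups did not overlap. Its partner Nop58 was at 118.6 and 179.8 RPKM in wt, 104.6 and 130.5 in the ZnF1 mutant and 128.3 and 213.6 in the ZnF4 mutant. Replicate 2 of Nop58 was above replicate 1 in each genotype, and the groups overlapped. Fbl, the methyltransferase fibrillarin, was at 28.0 and 32.1 RPKM in wt, 18.2 and 32.2 in the ZnF1 mutant and 25.6 and 30.5 in the ZnF4 mutant. Its low library was ZnF1 mutant replicate 1, and the other 5 lay between 25.6 and 32.2 RPKM.

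In the box H/ACA group, Nhp2 is a core protein also found in telomerase. It was at 117.1 and 98.5 RPKM in wt, 108.3 and 85.4 in the ZnF1 mutant and 140.0 and 139.6 in the ZnF4 mutant. Both ZnF4 mutant libraries lay above all others, while wt and ZnF1 mutant overlapped. Nolc1, a nucleolar phosphoprotein that associates with snoRNPs, was at 105.5 and 107.4 RPKM in wt, 87.7 and 92.2 in the ZnF1 mutant and 108.7 and 117.7 in the ZnF4 mutant, without overlap between groups. Dkc1, the pseudouridine synthase dyskerin, was at 58.6 and 80.3 RPKM in wt, 54.9 and 58.6 in the ZnF1 mutant and 62.1 and 90.4 in the ZnF4 mutant. ZnF1 mutant replicate 2 and wt replicate 1 had the same value of Dkc1.

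Of the 7 factors of the small subunit precursor, Wdr43, which acts early on the nascent precursor, was at 76.2 and 96.8 RPKM in wt, 64.4 and 76.3 in the ZnF1 mutant and 79.5 and 106.5 in the ZnF4 mutant. Heatr1, a large HEAT repeat protein of the same early complex, was at 28.2 and 32.9 RPKM in wt, 23.0 and 26.3 in the ZnF1 mutant and 28.0 and 37.5 in the ZnF4 mutant. Utp20, a large scaffold protein of the precursor, was at 15.5 and 19.1 RPKM in wt, 14.1 and 17.5 in the ZnF1 mutant and 21.1 and 26.8 in the ZnF4 mutant. For Utp20 both ZnF4 mutant libraries were above all others, and wt and ZnF1 mutant overlapped. Nop14, a protein of the precursor particle, was at 37.4 and 41.0 RPKM in wt, 36.9 and 34.2 in the ZnF1 mutant and 40.2 and 46.9 in the ZnF4 mutant. Noc4l, its binding partner, was at 72.0 and 42.7 RPKM in wt, 61.3 and 42.3 in the ZnF1 mutant and 69.7 and 51.1 in the ZnF4 mutant. In Noc4l, Rrp9 and Rrp12 the replicate 1 libraries were higher than replicate 2 in every genotype. Rrp9, a protein of the snoRNP needed for early cleavages, was at 45.9 and 32.4 RPKM in wt, 40.9 and 34.7 in the ZnF1 mutant and 50.2 and 39.5 in the ZnF4 mutant. Rrp12, a HEAT repeat protein of late maturation and export, was the lowest of the 7 at 20.4 and 14.2 RPKM in wt, 17.1 and 13.5 in the ZnF1 mutant and 19.3 and 16.3 in the ZnF4 mutant. Both had overlapping groups.

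Of the 11 large subunit factors, Bop1, Pes1 and Wdr12 form the PeBoW complex. Bop1 was at 89.6 and 56.2 RPKM in wt, 76.5 and 52.9 in the ZnF1 mutant and 85.9 and 62.7 in the ZnF4 mutant. Pes1 was at 19.0 and 12.1 RPKM in wt, 16.9 and 8.3 in the ZnF1 mutant and 19.1 and 13.5 in the ZnF4 mutant. Wdr12 was at 9.8 and 8.8 RPKM in wt, 9.0 and 6.9 in the ZnF1 mutant and 10.2 and 10.5 in the ZnF4 mutant. The 3 genes of this complex thus differed in level on the per-length scale, and Bop1 and Pes1 differed more between replicate numbers than between genotypes. Nop2, a methyltransferase of ribosomal RNA, was at 60.7 and 44.1 RPKM in wt, 54.2 and 41.8 in the ZnF1 mutant and 60.6 and 49.7 in the ZnF4 mutant. Rrs1, which helps to recruit the 5S ribonucleoprotein, was at 20.4 and 13.4 RPKM in wt, 14.9 and 10.5 in the ZnF1 mutant and 20.8 and 15.8 in the ZnF4 mutant. Replicate 1 was the higher library of Nop2 and Rrs1 in each genotype, and within each replicate number the ZnF1 mutant was lowest. Ebna1bp2, an assembly factor, was at 35.7 and 45.8 RPKM in wt, 34.8 and 40.3 in the ZnF1 mutant and 41.5 and 51.4 in the ZnF4 mutant. Rrp1b was at 25.8 and 23.4 RPKM in wt, 22.0 and 22.6 in the ZnF1 mutant and 28.6 and 28.9 in the ZnF4 mutant. The 3 groups of Rrp1b did not overlap. Mrto4, which holds a place on the precursor later taken by a stalk protein, was the lowest of the 33 at 8.5 and 8.6 RPKM in wt, 8.2 and 7.0 in the ZnF1 mutant and 9.2 and 11.9 in the ZnF4 mutant. The lowest Mrto4 library was ZnF1 mutant replicate 2, and both ZnF4 mutant libraries were above the other 4. Wdr74, a WD repeat protein of large subunit assembly, was at 50.7 and 39.6 RPKM in wt, 48.0 and 36.1 in the ZnF1 mutant and 54.7 and 51.1 in the ZnF4 mutant. Its ZnF4 mutant libraries were above all others, and wt and ZnF1 mutant overlapped. Nop16 was at 30.9 and 26.4 RPKM in wt, 32.3 and 23.2 in the ZnF1 mutant and 38.2 and 31.1 in the ZnF4 mutant. The ZnF1 mutant libraries of Nop16 spanned both wt libraries and reached above ZnF4 mutant replicate 2. Noc3l was at 11.9 and 13.5 RPKM in wt, 11.8 and 11.3 in the ZnF1 mutant and 12.1 and 14.7 in the ZnF4 mutant. Its ZnF1 mutant libraries lay just below the other 4.

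Among the 5 abundant or regulatory proteins, Ncl had the highest level of the 33 members. This gene, which encodes nucleolin, was at 250.4 and 364.3 RPKM in wt, 188.7 and 234.7 in the ZnF1 mutant and 238.6 and 345.7 in the ZnF4 mutant. Both ZnF1 mutant libraries were below the other 4. The transcript model used for Ncl has 8271 bases, and the level per length depends on that model. Npm1, the histone chaperone nucleophosmin, was at 95.2 and 113.0 RPKM in wt, 80.5 and 62.4 in the ZnF1 mutant and 92.8 and 169.0 in the ZnF4 mutant. Its ZnF4 mutant libraries differed widely, and its level is uncertain because the gene has near-identical pseudogene copies, and no source used here gives the counting of shared reads. Gnl3, the nucleolar GTPase nucleostemin, was at 92.1 and 113.0 RPKM in wt, 73.8 and 94.8 in the ZnF1 mutant and 100.7 and 151.0 in the ZnF4 mutant. Ddx21, an RNA helicase, was at 77.9 and 91.2 RPKM in wt, 67.5 and 73.2 in the ZnF1 mutant and 77.9 and 103.5 in the ZnF4 mutant. Mybbp1a, a repressor protein that binds MYB and acts in ribosomal RNA synthesis, was at 149.9 and 140.4 RPKM in wt, 125.8 and 126.6 in the ZnF1 mutant and 162.7 and 163.6 in the ZnF4 mutant. The 3 groups of Mybbp1a were tight and did not overlap.

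The genes were also compared by the annotated snoRNA genes that lie within their span on the same strand. Annotated snoRNA genes lay within 6 of the 33 members (18.2%), beside 186 of 10132 tested genes that could be matched to the annotation (1.84%, GENCODE on GRCm38). Nop56 held 5 of them, Nop58 held 4, Wdr43, Ncl and Gnl3 held 3 each, and Dkc1 held 1. Polyadenylated RNA was sequenced, so the values describe the host transcripts and not the snoRNAs.

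The first comparison asks how the members differed between the ZnF1 mutant and wt. All 33 had a lower mean in the ZnF1 mutant, with a median log2 difference of −0.19 and a range of −0.54 to −0.033, where a lower mean was found for 52.3% of all tested genes and their median was −0.013. Both ZnF1 mutant libraries were below both wt libraries in 14 members (12.7% of all tested genes), and 30 members were lower in both same-numbered pairs (35.1% of all tested genes). The 3 that were not were Fbl, Rrp9 and Nop16. The median difference was −0.20 for replicate 1 and −0.20 for replicate 2, beside 0.0 and 0.0 over all tested genes. Differences here and below are on the log2(RPKM + 1) scale.

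None of the 33 passed the threshold in limma on the 3 group means with Benjamini-Hochberg adjustment over all tested genes, and 0 of 11345 genes did, so the background was 0%. In this fit 1281 genes and 0 members had an unadjusted p under 0.05, and the lowest adjusted p among the members was 0.742. With the replicate number as a block, 2 members were lower (2.88% of all tested genes were lower) and 0 were higher (10.4% of all tested genes were higher). These were Ncl at −0.52 (block SE 0.093, limma adjusted p = 0.0284, or 0.742 without the block) and Rrs1 at −0.38 (block SE 0.08, adjusted p = 0.043, or 0.955 without the block). The mean of Ncl was 307.4 ± 80.5 RPKM (SD, n = 2) in wt and 211.7 ± 32.5 in ZnF1 mutant libraries. Rrs1 was at 12.7 ± 3.11 RPKM against 16.9 ± 4.95. In both genes the spread between replicates within wt was of the size of the group difference, while the within-pair differences were −0.41 and −0.63 for Ncl and −0.43 and −0.32 for Rrs1. Neither was called by the block fit when any 1 library was left out, fits that have fewer residual degrees of freedom.

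The largest difference of means was that of Npm1, at −0.54, with pair differences of −0.24 and −0.85 (limma adjusted p = 0.79, or 0.266 with the block). Pes1 followed after Ncl and Rrs1 at −0.33 and Nop58 at −0.32, with limma adjusted p of 0.167 and 0.147 with the block. Single libraries moved these values in the fits without the block, in which leaving out 1 library also adds a difference between replicate numbers to the comparison. Ncl ranged from −0.79 without wt replicate 1 to −0.25 without wt replicate 2, and Nop58 from −0.62 to −0.021 for the same libraries. Rrs1 ranged from −0.66 without wt replicate 2 to −0.091 without wt replicate 1. Npm1 ranged from −0.72 without ZnF1 mutant replicate 1 to −0.36 without ZnF1 mutant replicate 2, and Pes1 from −0.80 to 0.15 for the same libraries. Of these 5 genes only Pes1 changed sign with 1 library left out, and Nop58 came close to 0. By role, the medians were −0.20 for RNA polymerase I genes, −0.30 for box C/D proteins and −0.24 for the box H/ACA group. They were −0.14 for small subunit factors, −0.13 for large subunit factors and −0.28 for the abundant and regulatory proteins. These role medians lie within the range of the single members and were not tested against each other.

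Other transcripts moved with this comparison. All 12 macrophage and monocyte markers were higher in the ZnF1 mutant, with a median of 1.35. Without the block 0 were called, and with it 11 were called higher, beside 10.4% of all tested genes. Of the 12 B lineage markers 10 were higher and 2 lower, with a median of 0.15. All 30 listed cell cycle genes were lower in the ZnF1 mutant, with a median of −0.15, and 0 were called without the block and 1 was lower with it. The part of other marrow cells and of cell cycle genes in the members' difference was not tested. Without wt replicate 1 and ZnF1 mutant replicate 2, the libraries with most granulocyte transcripts, the median over the members was −0.16. That leaves 1 library per genotype, wt replicate 2 and ZnF1 mutant replicate 1, so genotype and replicate number cannot be told apart in that value.

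**Figure D2:**
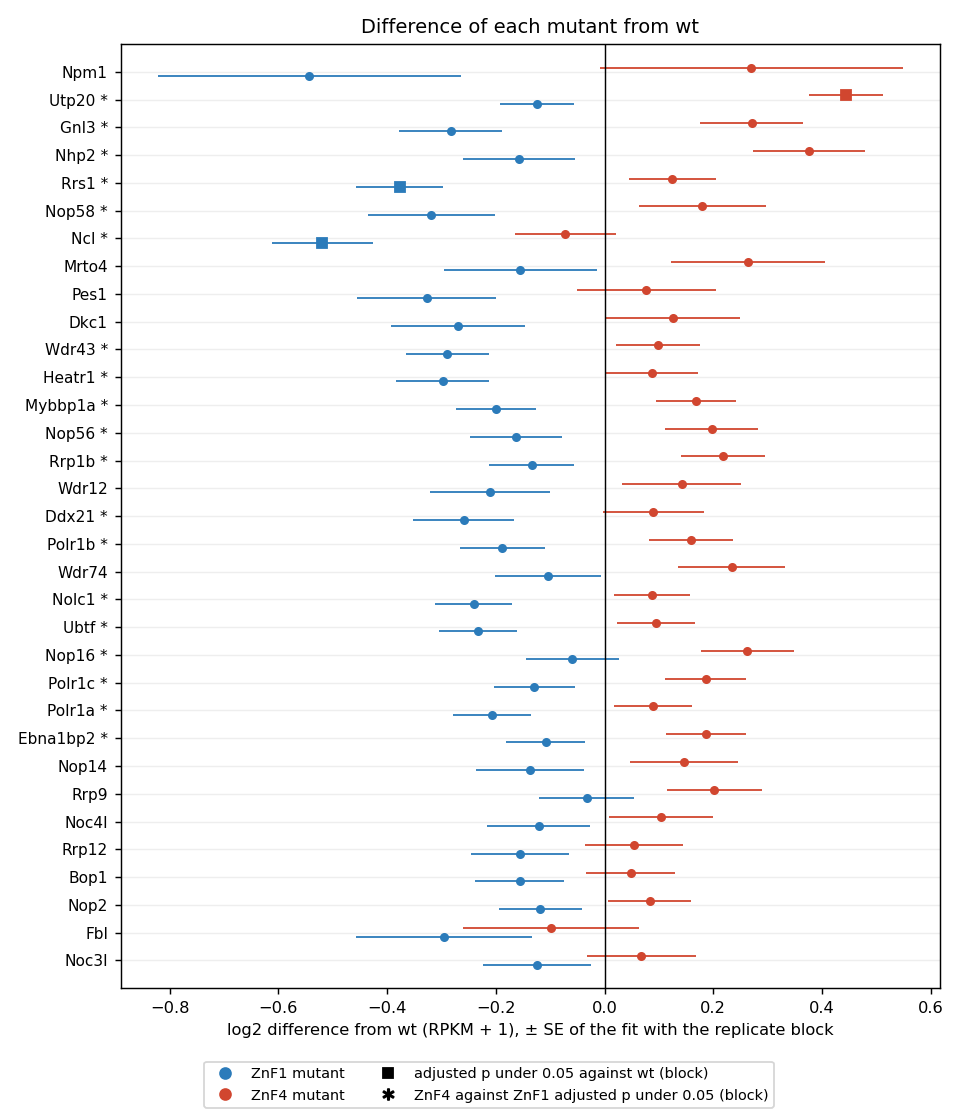
Log2 difference of each mutant from wt for the 33 genes, sorted by the difference between the mutants, with bars of ± 1 SE of the fit with the replicate block; squares mark an adjusted p under 0.05 against wt and asterisks a call between the mutants in that fit. All 33 ZnF1 mutant points lie left of 0 and 31 ZnF4 mutant points right of it, with squares for Ncl, Rrs1 and Utp20.

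The next comparison sets the ZnF4 mutant against the same wt libraries, so the 2 comparisons with wt are not independent. Here 31 members had a higher mean and 2, Fbl at −0.098 and Ncl at −0.072, a lower mean (42.8% of all tested genes were lower). The median log2 difference was 0.14, where 57.0% of all tested genes were higher and their median was 0.037. Both ZnF4 mutant libraries were above both wt libraries in 10 members (17.8% of all tested genes), and 24 were higher in both same-numbered pairs (42.5% of all tested genes). The median was 0.066 for replicate 1 and 0.19 for replicate 2, beside 0.0 and 0.066 over all tested genes.

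No member passed in limma without the block (0 of 33, beside 1.43% of tested genes higher and 1.30% lower), and 0 members had an unadjusted p under 0.05. With the block 1 member rose and 0 fell (8.02% and 7.92% of all tested genes). This was Utp20, at 24.0 ± 4.03 RPKM (SD, n = 2) against 17.3 ± 2.55, a log2 difference of 0.45 (block SE 0.068, limma adjusted p = 0.0146, or 0.559 without the block), with pair differences of 0.42 and 0.47. The call was lost when either wt or either ZnF4 mutant library was left out. Nhp2 had a difference of 0.38 (limma adjusted p = 0.0715 with the block), and Gnl3, Npm1 and Mrto4 were at 0.27, 0.27 and 0.26 (adjusted p = 0.129, 0.575 and 0.279 with the block). Without ZnF4 mutant replicate 2, the values of Gnl3 and Npm1 were −0.019 and −0.16. Utp20 ranged from 0.28 to 0.61 and Mrto4 from 0.095 to 0.43 without ZnF4 mutant replicate 2 and replicate 1, and Nhp2 from 0.25 to 0.50 without wt replicate 2 and replicate 1. These values without 1 library also hold a difference between replicate numbers. In Ncl the pair differences were −0.069 and −0.075, within its block SE of 0.093. Of the 30 cell cycle genes 29 were higher in the ZnF4 mutant than in wt, with a median of 0.26, and 0 were called without the block and 3 rose with it. Their part in the members' difference was not tested.

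The direct comparison of the mutants gave the widest separation. All 33 members had a higher mean in the ZnF4 mutant than in the ZnF1 mutant, with a median log2 difference of 0.35 and a range of 0.19 to 0.81, where 54.7% of all tested genes were higher, 45.3% lower and their median was 0.039. Both ZnF4 mutant libraries were above both ZnF1 mutant libraries in 24 members (21.7% of all tested genes) and below both in 0 (21.8%). The 9 with overlap were Fbl, Nop58, Rrp9, Rrp12, Noc4l, Bop1, Pes1, Nop2 and Nop16. In both same-numbered pairs 32 members were higher (41.2% of all tested genes), all but Fbl. The members' median was 0.25 for replicate 1 and 0.44 for replicate 2, beside 0.0 and 0.055 over all tested genes.

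In limma without the block no member passed (0 of 33, beside 1.61% of tested genes higher and 3.75% lower). The lowest adjusted p was 0.209, for Nhp2, and 2 members, Nhp2 and Utp20, had an unadjusted p under 0.05. With the replicate block 19 members rose, beside 15.9% of all tested genes, and 0 fell, beside 19.2%. By role these were 4 of 4 RNA polymerase I genes and 2 of 3 box C/D proteins (Nop56, Nop58). The box H/ACA group gave 2 of 3 (Nhp2, Nolc1), and the small subunit factors 3 of 7 (Wdr43, Utp20, Heatr1). Also called were 4 of 11 large subunit factors (Nop16, Rrs1, Rrp1b, Ebna1bp2) and 4 of 5 abundant or regulatory proteins (Ncl, Gnl3, Ddx21, Mybbp1a). With the block and 1 library left out, the count was 12 without ZnF1 mutant replicate 1, 0 without ZnF4 mutant replicate 2 and 3 without any of the other 4. These fits have fewer residual degrees of freedom.

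The lowest adjusted p with the block was that of Utp20, at 0.57 (block SE 0.068, limma adjusted p = 0.00495), with pair differences of 0.55 and 0.59. Gnl3 was at 0.56 (block SE 0.095, adjusted p = 0.0127), Nhp2 at 0.54 (block SE 0.103, adjusted p = 0.017) and Rrs1 at 0.50 (block SE 0.08, adjusted p = 0.0107). Ncl was at 0.45 (block SE 0.093, adjusted p = 0.0206) and Nop58 at 0.50 (block SE 0.117, adjusted p = 0.0284). These 6 genes, from 5 of the 6 roles, were higher in the ZnF4 mutant in both same-numbered pairs. The 4 polymerase I genes were close to each other at 0.30 to 0.35, with limma adjusted p of 0.0239 to 0.0316 with the block. Mybbp1a had nearly equal pair differences of 0.37 and 0.37 (limma adjusted p = 0.0191 with the block, 0.259 without it). Npm1 had the largest mean difference, 0.81, but its pair differences were 0.20 and 1.42 and it did not pass with the block (limma adjusted p = 0.0777). Wdr74, Dkc1, Wdr12 and Pes1 also missed the threshold with the block (limma adjusted p = 0.0507, 0.0609, 0.0613 and 0.0631), and Fbl was at 0.20 (adjusted p = 0.379).

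The values of many members moved when 1 library was left out, which also unbalances the replicate numbers. In fits without the block, lacking 1 library and so also holding a difference between replicate numbers, the lowest value came without ZnF4 mutant replicate 2 and the highest without ZnF4 mutant replicate 1 for the members named next. Ncl was at 0.18 to 0.71, Nop58 at 0.13 to 0.87, Gnl3 at 0.27 to 0.84 and Utp20 at 0.40 to 0.73. Npm1 was at 0.38 to 1.24, Wdr43 at 0.18 to 0.60, Heatr1 at 0.18 to 0.59, Ddx21 at 0.15 to 0.55 and Ebna1bp2 at 0.14 to 0.45. In these 9 genes the value was thus larger with ZnF4 mutant replicate 2 alone than with replicate 1 alone. All of them but Npm1 were also called higher in replicate 2 in the fit with genotype and the block. A dependence on 1 library and the difference between replicate numbers cannot be told apart in these values. Nhp2 at 0.37 to 0.71, Rrs1 at 0.27 to 0.74 and Nop16 at 0.091 to 0.55 had the lowest value without ZnF1 mutant replicate 2 and the highest without ZnF1 mutant replicate 1. Polr1a was at 0.19 without ZnF1 mutant replicate 1 and 0.40 without ZnF1 mutant replicate 2. Mybbp1a at 0.36 to 0.37 and Rrp1b at 0.33 to 0.37 moved little with any library left out. All of these values stayed above 0.

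Cell cycle genes and marrow cell markers also differed between the mutants. All 30 listed cell cycle genes were higher in the ZnF4 than in the ZnF1 mutant, with a median of 0.40. Without the block 0 were called in limma, and with it 27 rose, beside 15.9% of all tested genes. Their sums were 2755.5 and 2741.6 RPKM in wt, 2373.9 and 2473.2 in the ZnF1 mutant and 3163.4 and 3257.5 in the ZnF4 mutant. The ZnF1 mutant was lowest and the ZnF4 mutant highest, and the sums of the 3 groups did not overlap. All 12 macrophage and monocyte markers were lower in the ZnF4 than in the ZnF1 mutant, with a median of −1.41. In limma 7 fell without the block and 11 with it (3.75% and 19.2% of all tested genes). Of the B lineage markers 8 of 12 were lower, with a median of −0.18. The part of cell cycle and of other marrow cells in the members' difference was not tested. Without the libraries with most granulocyte transcripts, wt replicate 1 and ZnF1 mutant replicate 2, the members' median was 0.35, a value that rests on ZnF1 mutant replicate 1 alone against both ZnF4 mutant libraries and so also holds a difference between replicate numbers.

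**Figure D3:**
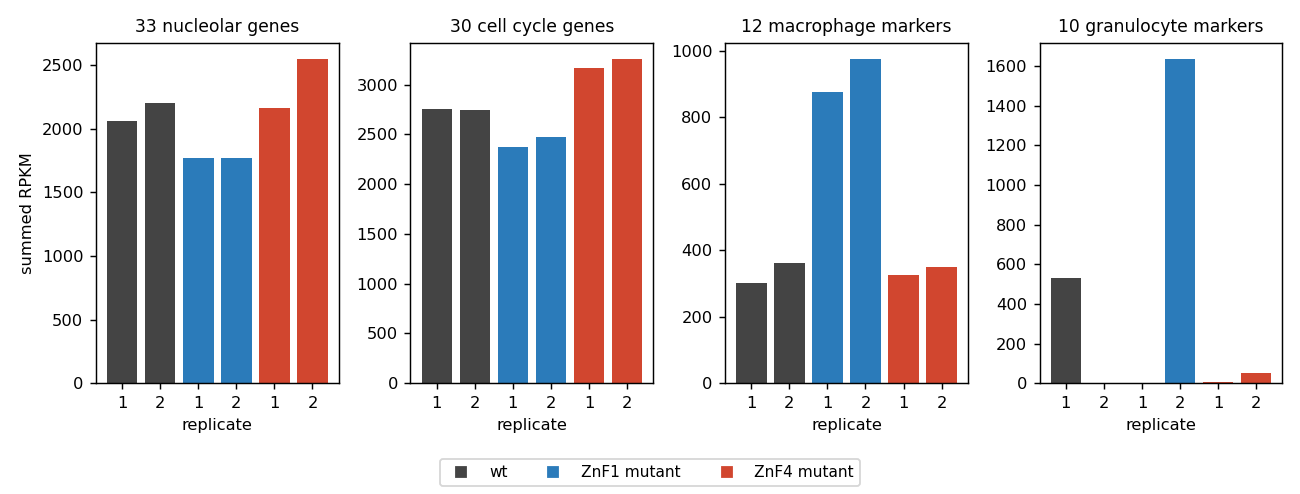
Summed RPKM of the 33 nucleolar genes, 30 cell cycle genes, 12 macrophage and monocyte markers and 10 granulocyte markers in each of the 6 libraries, 1 bar per library. The nucleolar sums are 1769.0 and 1766.9 RPKM in the ZnF1 mutant, the macrophage sums are highest there, and the granulocyte sums stand out in wt replicate 1 and ZnF1 mutant replicate 2.

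Myc was highest in the ZnF4 mutant. It was at 217.4 and 166.7 RPKM in wt, 151.0 and 183.8 in the ZnF1 mutant and 290.0 and 234.5 in the ZnF4 mutant. Both ZnF4 mutant libraries were above the other 4, and wt and ZnF1 mutant overlapped. Between the mutants the log2 difference of Myc was 0.64 (limma adjusted p = 0.207, or 0.0435 with the block), and against wt it was 0.45 (adjusted p = 0.607, or 0.162 with the block). Its relative Mycn was at 28.2 and 16.2 RPKM in wt, 19.5 and 21.5 in the ZnF1 mutant and 4.5 and 3.4 in the ZnF4 mutant, and fell by 2.19 in the ZnF4 mutant against wt (limma adjusted p = 0.0286). Max, the shared partner, differed from wt by −0.057 after finger 1 loss and −0.062 after finger 4 loss (limma adjusted p = 1.0).

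A wider list of 116 tested genes of the same pathway, none of them members, had medians nearer to 0. In the ZnF1 mutant against wt 105 were lower and 11 higher, with a median of −0.15; 0 passed in limma, and 2 were lower with the block. In the ZnF4 mutant against wt 96 were higher and 20 lower, with a median of 0.11, and 0 passed with or without the block. Most of the list thus lay on the side of the members in each comparison with wt. Between the mutants 108 were higher and 8 lower in the ZnF4 mutant, with a median of 0.24. Without the block 0 passed in limma. With it 33 rose and 0 fell (15.9% and 19.2% of all tested genes). By role the medians between the mutants were 0.17 for 10 other polymerase I factors, 0.45 for 10 other snoRNP factors, 0.23 for 48 other small subunit factors and 0.23 for 48 other large subunit factors. With the block 2, 6, 14 and 11 of them rose.

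In that list Znrd1, a small subunit of RNA polymerase I, was at 67.4 and 59.7 RPKM in wt, 40.1 and 31.0 in the ZnF1 mutant and 74.6 and 63.5 in the ZnF4 mutant. Both ZnF1 mutant libraries were far below the others. The log2 difference from wt was −0.83 (limma adjusted p = 0.0076 with the block, 0.163 without it) and that between the mutants 0.95 (adjusted p = 0.00202 with the block, 0.0616 without it). Gar1, a core box H/ACA protein, was at 82.3 and 74.9 RPKM in wt, 60.0 and 55.1 in the ZnF1 mutant and 81.6 and 87.9 in the ZnF4 mutant. It differed by −0.44 from wt in the ZnF1 mutant and by 0.55 between the mutants (limma adjusted p = 0.038 and 0.011 with the block, 0.327 and 0.119 without it). Mdn1, a large ATPase that remodels the large subunit precursor, and Ruvbl1, an ATPase of snoRNP assembly, both differed by 0.55 between the mutants. Their limma adjusted p was 0.00816 and 0.0357 with the block, and 0.589 and 0.748 without it. Ruvbl1 was low, at 1.2 to 5.8 RPKM.

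Members differed by replicate number as well as by genotype, and so did many other tested genes. With genotype in the fit, 9 members were higher in replicate 2 and 10 lower (18.3% and 34.2% of all tested genes), and the log2 difference of replicate 2 from replicate 1 ran from −0.68 in Pes1 to 0.55 in Nop58. The 9 higher members (Nop58, Ncl, Gnl3, Dkc1, Wdr43, Utp20, Ebna1bp2, Heatr1 and Ddx21) had transcripts of 41.0% to 48.4% GC, with a median of 44.7%. The 10 lower members (Pes1, Noc4l, Bop1, Rrs1, Nop2, Rrp9, Rrp12, Nop16, Wdr74 and Polr1b) had 50.2% to 59.8%, with a median of 55.0%. The 2 sets did not overlap in GC content, but they depend on the threshold. Fbl, at 56.7% GC, was 0.41 higher in replicate 2 and just missed it (limma adjusted p = 0.0505). Across the 33 members Pearson's r of GC content with the replicate difference was −0.695. Across 11142 tested genes with a GC value it was −0.675, so this relation was not particular to the members. Genes share the same 6 libraries and are not independent replicates. The labels do not state what a replicate number shares.

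**Figure D4:**
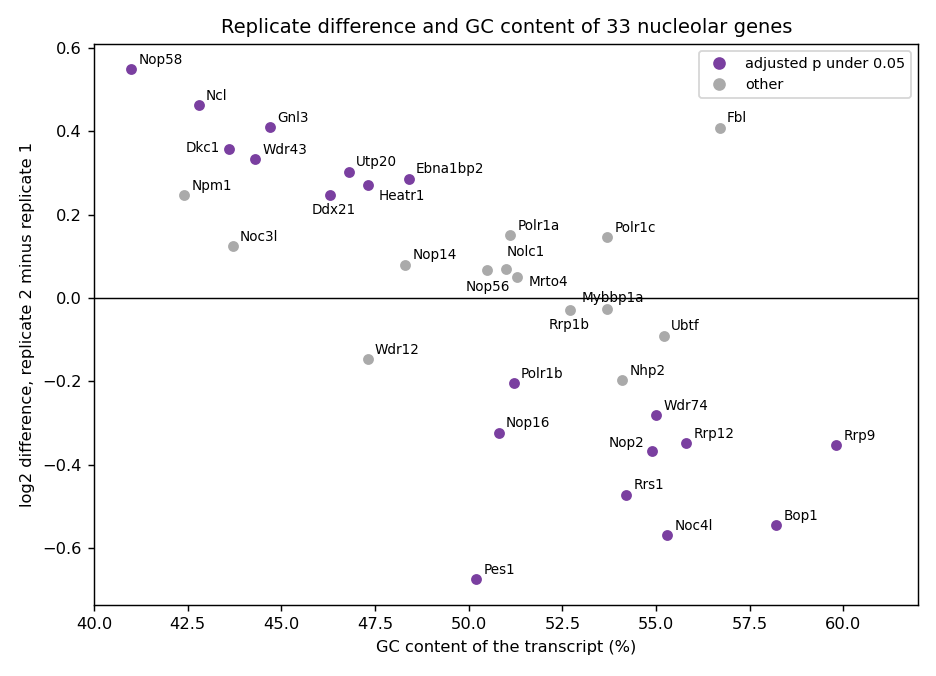
Log2 difference of replicate 2 from replicate 1 against the GC content of the transcript (%) for the 33 genes, 1 point per gene, coloured where the adjusted p was under 0.05. The 9 coloured genes above 0 have at most 48.4% GC and the 10 below 0 at least 50.2%.

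Among the members GC content also ran with both differences that involve the ZnF1 mutant. These share the same ZnF1 mutant libraries and are not independent. Across the 33 genes r was 0.529 with the ZnF1 mutant's difference from wt, −0.54 with the difference between the mutants and −0.086 with the ZnF4 mutant's difference from wt. Across all tested genes with a GC value these were 0.08, −0.057 and −0.002. The part of GC content in the differences between genotypes was not tested.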

How the data were processed

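Polyadenylated RNA of 6 libraries was sequenced, and the authors deposited RPKM values with 1 decimal for RefSeq transcripts, per the file headers. TopHat, bedtools and build mm9 are named in the submitters' processing notes; how shared reads were counted, and strand use, are not given in the sources used here. The depth is unknown because rounding hides what 1 read is worth, and summed RPKM was 287007 to 345766 per library.

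After 1 row without a gene was left out, the remaining 26531 rows were summed per symbol. Of 40 symbols turned into numbers, 39 were restored by accession. The 11345 genes that reached 1 RPKM in 2 or more libraries were tested with limma 3.58.1 (R 4.3.3, intensity trend, log2(RPKM + 1), all 6 libraries in 1 fit of 3 group means, two-sided, Benjamini-Hochberg adjusted, threshold 0.05), after the script was tested on simulated data. Fold changes on this scale understate those of low genes. Other pathway genes were matched by symbol, synonym or accession; Taf1a was not analysed here.

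Same-numbered libraries deviated together from their group means (correlations across genes of 0.50, 0.754 and 0.715), so values from a fit blocked on replicate number are given wherever it changes a call. p-values measure the spread between these libraries. Members, gene lists and the motif were chosen with earlier results of these data known. All members were named. Those given in full were the 8 with the highest level, those called in any fit, the 5 with the largest difference in each comparison and the lowest of each role; others were added. Named pathway genes were up to 4 called per comparison with the largest difference. Promoter sequences and starts are RefSeq's on GRCm38.p6, and no coordinate of the deposited mm9 table was used. GC content was taken from GENCODE transcripts of GRCm38. Alternatives were a pseudocount of 0.1, no filter, a filter of 5 RPKM, the highest row per symbol, median-of-ratios scaling, only the 4 libraries compared, and each library left out. Python 3.11.15 with pandas 2.3.3, numpy 2.4.6 and matplotlib 3.10.9 was used.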

Additional observations from a re-analysis of the deposited data

How the results depend on the processing

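The median log2 differences of the members kept their sign and moved by less than 0.097, the spread of the library medians, under every alternative run; with 1 library left out they were −0.21 to −0.15 (ZnF1 mutant against wt), 0.10 to 0.19 (ZnF4 mutant against wt) and 0.33 to 0.38 (between the mutants), and median-of-ratios scaling gave −0.23, 0.11 and 0.35. Members called were 0 in each comparison except with the replicate block, where they were 2, 1 and 19. Genes called, in the same order, were 0, 309 and 609, or 1502, 1809 and 3979 with the replicate block. With all 6 libraries the block leaves every fold change between genotypes as it is. Without a filter the first was 199; with at least 5 RPKM the others were 176 and 323, and with only the 4 libraries compared 86 and 234. Leaving out 1 library gave 0 to 88 and 0 to 262, and leaving out wt replicate 1 and ZnF1 mutant replicate 2 gave 0 for each. Such fits leave fewer residual degrees of freedom. The last alternative, and the block combined with other choices, were chosen after seeing the data. Members called with the block became 0 (ZnF1 mutant against wt) and 1 (between the mutants) without a filter, where limma's prior degrees of freedom fell, and 5 in the first with median-of-ratios scaling; with 1 library left out they were 0 to 0, 0 to 1 and 0 to 12. Members called between replicate numbers were 19, or 4 without a filter. The cause of these moves was not tested. The block, the filters and libraries outside a comparison cannot change a member's fold change. Direction was thus fixed in those settings, and only the side of the threshold could move. Of 420 alternative values for 30 named member differences, 393 kept direction and side of the threshold, 22 passed it with the block, and 5 changed sign. Those were Pes1 and Rrs1 in the ZnF1 mutant against wt, at 0.45 and 0.14 without wt replicate 1 and ZnF1 mutant replicate 2, and 3 values with 1 library left out. Pes1 was then at −0.80 to 0.15 and Rrs1 at −0.66 to −0.091 (ZnF1 mutant against wt), and Gnl3 at −0.019 to 0.56 and Npm1 at −0.16 to 0.70 (ZnF4 mutant against wt). The highest value of Pes1 came without ZnF1 mutant replicate 2, and the lowest of Gnl3 and Npm1 without ZnF4 mutant replicate 2. The block could not be fitted without wt replicate 1 and ZnF1 mutant replicate 2, since 0 residual degrees of freedom remain, and in the ZnF1 mutant against wt that setting compares unlike replicate numbers only. Depth is unknown, so no counting interval is given, and a difference that missed the threshold is not shown to be absent.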
